A study of Mus musculus with 11 samples.

Results

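The genes described here are 38 immediate early, feedback and heat shock genes, the transcripts that cells make within minutes of a stimulus, among 55421 genes counted in articular cartilage of 11 mouse knees. They comprise 15 transcription factors outside the AP-1 family, 4 genes of the immediate early response family, 5 MAP kinase phosphatases, 4 other feedback genes and effectors, 4 genes of mRNA decay and growth restraint, 3 growth arrest genes and 3 heat shock genes. The list was drawn up by function, with earlier results of these data known. Klf11 was instead chosen from measured values of these libraries for its difference between the groups. Klf11 is therefore given as a description, with no test, and stands outside every count of members called, of members whose groups do or do not overlap, and of members by sign. Of the 38 genes, 37 passed the filter on low counts, and Egr4 did not, with 4 counts over all libraries. That leaves 36 genes for those counts.

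The study measured poly(A) RNA from knee cartilage of C57BL/6 mice aged 14 weeks, taken 4 weeks after surgery that destabilized the medial meniscus (DMM), which unbalances loading of the joint and leads to osteoarthritis. There were 4 DMM knees of mice labelled c-FosDCh, 3 DMM knees of c-FosWT mice and 4 contralateral knees of c-FosWT mice, and 3 of the c-FosWT animals gave both knees. The label c-FosDCh is read here as loss of the transcription factor gene Fos in chondrocytes; the sources used here give neither the Cre driver nor the deleted exons. Contralateral knees of c-FosDCh mice were not analysed here, so no comparison separates the genotype from its combination with the operation, and the contralateral knees are the other limb of operated animals.

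Immediate early genes are switched on without new protein synthesis, through kinases that act on factors already bound at their promoters, and many of their products then damp the same kinases or destroy the same transcripts. In cartilage they answer mechanical load, growth factors and cytokines. They also respond to killing, cooling and cutting, so RNA of tissue dissected with a scalpel, as here, holds whatever was induced before lysis. The inducible Hsp70 genes and their partner Dnajb1 belong to the heat shock response, which is driven by misfolded protein.

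Gene counts per library ranged from 13593454 to 18280558. Levels are CPM, read counts relative to the scaled library total, and levels that are compared between genes are CPM per kilobase of exon. Fos itself had 19.4, 10.9, 29.5 and 33 CPM in DMM libraries labelled c-FosDCh, against 12.1, 14.1 and 9.01 CPM in c-FosWT DMM and 17.1, 24.8, 22 and 15.7 CPM in contralateral libraries. Under the c-FosDCh label Fos averaged 23.2 ± 10 CPM (SD, n = 4). Its mean was 11.7 ± 2.58 CPM (SD, n = 3) in the operated knees of c-FosWT mice. Between these groups Fos differed by 0.98 ± 0.35 log2 units, higher under the c-FosDCh label. This passed with DESeq2 (adjusted p = 0.0341) and not with edgeR (adjusted p = 0.0736). Whether the label stands for a loss of Fos RNA was not tested. Since the deleted part is not given, these whole-gene counts do not check the genotype, and each direction below rests on the labels. All 13 chondrocyte markers were found, with summed levels of 18700 to 67400 CPM in c-FosDCh DMM, 5360 to 14900 CPM in c-FosWT DMM and 18100 to 30200 CPM in contralateral libraries. Such sums rest most on the most abundant genes. The mean log2 CPM of the chondrocyte markers overlapped between the groups, at 7.11 to 8.33, 6.21 to 8.23 and 7.32 to 8.38 in the same order. The 9 erythroid markers found summed to 447 to 4260, 7590 to 12500 and 2290 to 6660 CPM in the same order of groups, and the 11 granulocyte markers to 289 to 10400, 7150 to 13400 and 3030 to 9490 CPM. No marker of either list was at 0 in all libraries. The mean log2 CPM of these 2 lists, called the marrow score, was 7.97, 7.9, 6.44 and 4.17 in c-FosDCh DMM libraries 1 to 4, against 8.44, 8.78 and 9.21 in c-FosWT DMM libraries, and 7.71, 7.03, 6.9 and 8.53 in contralateral libraries. In such bulk samples, fewer cells of a type and less RNA per cell cannot be told apart.

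In the contralateral cartilage the highest levels per kilobase belonged to Zfp36l1, which destabilizes AU-rich transcripts, at 40.1 CPM per kilobase, and to Rhob, a small GTPase, at 34.3. Klf2, Dusp1 and Klf6 followed closely at 28.7, 28.6 and 28.4 CPM per kilobase, and these neighbours did not differ beyond the spread of the libraries. The lowest tested levels were those of Nr4a3, an orphan nuclear receptor, at 0.367, and of Hspa1a, an inducible Hsp70, at 1.22 CPM per kilobase. Opposite-strand exons overlap 55.9% of the exon length of Zfp36l1, 22.1% of Dusp5, 19.1% of Gadd45a and 19% of Hspa1a, and the strand used in counting is not given, so these 4 levels are uncertain. The median SD of log2 CPM within a group was 0.39 for the members in c-FosDCh DMM libraries, against 0.24 in c-FosWT DMM and 0.23 in contralateral libraries, beside 0.35, 0.24 and 0.23 over all genes tested.

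The comparison of the DMM groups asks how cartilage labelled c-FosDCh differed from c-FosWT cartilage after the same operation. Of the 36 members, 12 passed an adjusted p under 0.05 (edgeR quasi-likelihood test, Benjamini-Hochberg over 18125 genes), 11 higher and 1 lower in c-FosDCh. Over all genes tested 14.4% were called, 10.6% as higher and 3.79% as lower. The members that rose were Maff, Dusp1, Hspa1b, Hspa1a, Arc, Nr4a2, Ier3, Klf4, Ier5l, Gadd45b and Socs3, and the member that fell was Btg2. By role, calls went to 2 of 3 heat shock genes, 2 of 4 genes of the immediate early response family, 2 of 4 other feedback genes and effectors, 1 of 3 Nr4a genes, 1 of 4 Klf genes, 1 of 3 other transcription factors, 1 of 5 MAP kinase phosphatases, 1 of 4 genes of mRNA decay and growth restraint, 1 of 3 growth arrest genes and 0 of 3 Egr genes; no difference between roles was tested. The median log2 fold change of the 36 members was 0.14, against -0.01 over all genes. Of the members 20 were positive, which is 55.6%, beside 49.5% of all genes. The groups did not overlap for 12 members higher in c-FosDCh, where 17.2% of all genes did so, and for 3 members lower, where 15.8% did.

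Dusp1 encodes a nuclear phosphatase that switches off MAP kinases. Its level was 154, 80.7, 249 and 498 CPM in c-FosDCh DMM libraries 1 to 4, against 55.2, 36.9 and 56.8 CPM in c-FosWT DMM libraries; contralateral libraries had 97, 106, 107 and 68.6 CPM. Every c-FosDCh library lay above every c-FosWT DMM library, libraries 3 and 4 far above, while library 2 lay within the contralateral range. The log2 fold change between the DMM groups was 2.30 ± 0.53 (SE; adjusted p = 0.0332, edgeR). The other 4 phosphatases of the list, which also act on MAP kinases, did not pass: Dusp2 had a log2 fold change of -1.11, Dusp4 of -0.70, Dusp5 of -0.74 and Dusp6, which is specific for ERK, of -0.38. In c-FosDCh libraries 3 and 4, Dusp2 stood at 1.69 and 1.83 CPM while Dusp1 stood at its highest values.

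Maff, a small Maf factor without an activation domain, had 16, 14.8, 28.7 and 58.1 CPM in c-FosDCh DMM libraries, against 6.56, 3.15 and 6.67 CPM in the DMM knees of c-FosWT mice, and 9.84, 12.9, 13.8 and 7.87 CPM in contralateral libraries. All 4 c-FosDCh libraries were above all 7 others. Its log2 fold change of 2.42 ± 0.51 (adjusted p = 0.0332, edgeR) had the largest value among the members. Myc, the growth-promoting transcription factor, had 22.6, 16.2, 12.3 and 4.69 CPM in c-FosDCh DMM libraries, against 26.8, 30.4 and 33.2 CPM in c-FosWT DMM libraries. Those ranges did not overlap either, but the log2 fold change of -1.11 ± 0.40 did not pass (adjusted p = 0.0771, edgeR). Csrnp1, a nuclear factor first known as induced by axin, was not called at 0.21 ± 0.19.

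Btg2 restrains proliferation and promotes removal of poly(A) tails. It had 71.7, 77.2, 53.6 and 65.4 CPM in c-FosDCh DMM libraries, against 81.2, 130 and 122 CPM in c-FosWT DMM libraries. All 4 c-FosDCh libraries lay below the 3 c-FosWT DMM libraries and within the contralateral range of 52.3 to 81.2 CPM. The log2 fold change was -0.73 ± 0.20 (adjusted p = 0.0404, edgeR). Its relative Btg1 was not called at 0.23, and neither were the AU-rich RNA decay factors Zfp36 at -0.41 and Zfp36l1 at 0.14.

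Dusp1 and Maff, with the largest rises among the members, and Btg2, the member that fell, were the 3 members whose promoter windows held a full cAMP response element, TGACGTCA, the site of CREB and ATF factors. RefSeq windows on GRCm38.p6, from 250 bases before to 50 after a start, were at hand for 30 of the 38 members; these members have 40 windows, and the element, searched on both strands, stood in 3 of the 40 and in 1.79% of 32851 windows of all genes. The windows are shown because the same letters occur beside changes of opposite sign; capitals mark the element, whose first base is at -143 for Dusp1, -29 for Maff and -166 for Btg2. The shorter site TGACG, which the full element contains, was in 21 of the 40 windows, of 15 members, and in 20.8% of all windows. These were 2 of 6 motifs searched: the CArG box of SRF was in 6 of the 40 windows, of 3 members (Dusp5, Egr2 and Zfp36), and in 1.63% of all windows, the AP-1 site (TGACTCA or TGAGTCA) in 1 window (of Csrnp1) and 5.2%, the EGR site GCGTGGGCG in 1 window (of Maff) and 0.612%, and the heat shock element is given with the Hsp70 genes. Windows of nearby starts of a gene overlap, so the same site can be counted more than once, as happened with the CArG box and TGACG of Egr2. The windows to print were chosen after the matches were seen, and a match is a description of letters only.
Dusp1 (chr17:26508423-26508722, minus strand): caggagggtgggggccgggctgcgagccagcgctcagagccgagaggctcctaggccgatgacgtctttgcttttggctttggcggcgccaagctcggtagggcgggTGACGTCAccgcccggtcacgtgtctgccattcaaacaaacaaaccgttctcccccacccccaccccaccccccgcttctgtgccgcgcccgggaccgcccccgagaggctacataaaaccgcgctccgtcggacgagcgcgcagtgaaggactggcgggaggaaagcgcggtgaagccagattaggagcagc
Maff (chr15:79347270-79347569, plus strand): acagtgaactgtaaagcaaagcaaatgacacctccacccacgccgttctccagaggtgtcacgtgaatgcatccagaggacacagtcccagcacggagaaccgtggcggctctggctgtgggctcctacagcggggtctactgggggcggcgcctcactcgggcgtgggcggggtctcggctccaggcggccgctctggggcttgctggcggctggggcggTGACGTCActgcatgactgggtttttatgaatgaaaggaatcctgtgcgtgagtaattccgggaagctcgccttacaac
Btg2 (chr1:134079106-134079405, minus strand): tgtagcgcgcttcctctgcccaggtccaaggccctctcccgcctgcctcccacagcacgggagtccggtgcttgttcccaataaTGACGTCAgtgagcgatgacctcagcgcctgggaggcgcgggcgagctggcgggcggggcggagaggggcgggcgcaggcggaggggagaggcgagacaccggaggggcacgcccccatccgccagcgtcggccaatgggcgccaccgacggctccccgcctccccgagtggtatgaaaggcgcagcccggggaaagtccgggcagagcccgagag

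Among the zinc-finger factors, Klf4 had 88.7, 67.7, 136 and 180 CPM in c-FosDCh DMM libraries, against 56.7, 44.1 and 48.6 CPM in the DMM knees of c-FosWT mice, and 77.1, 84, 68.5 and 64.5 CPM in contralateral libraries. The DMM groups did not overlap, and the log2 fold change was 1.24 ± 0.29 (adjusted p = 0.0336, edgeR). Klf2, Klf6 and Klf10 were not called, at -0.09, -0.08 and -0.37. Klf11, a repressor related to Klf10, had 12.6, 13.1, 8.26 and 10.6 CPM in c-FosDCh DMM libraries, against 27, 26.1 and 20.6 CPM in the DMM knees of c-FosWT mice and 19.4, 19.3, 20.5 and 18 CPM in contralateral libraries. It was lower in every c-FosDCh library than in every other, with a log2 fold change of -1.14 between the DMM groups, the pattern for which it was chosen.

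Egr1, an early growth response factor, had 74, 32.4, 67.4 and 44.6 CPM in c-FosDCh DMM libraries, against 30.9, 27.8 and 27.4 CPM in c-FosWT DMM libraries. The groups did not overlap, and the log2 fold change of 0.93 ± 0.31 did not pass (adjusted p = 0.0633, edgeR). Egr2 at 0.94 ± 0.42 and Egr3 at 0.55 ± 0.51 did not pass either. In c-FosDCh library 4, Egr3 was at 5.24 CPM while Egr2 was at 10.6 CPM, the highest Egr2 value of all libraries. Nr4a2, an orphan nuclear receptor, averaged 17.4 ± 10.2 CPM (SD, n = 4) in c-FosDCh DMM and 6.65 ± 1.48 CPM (SD, n = 3) in c-FosWT DMM libraries, with a log2 fold change of 1.38 ± 0.38 (adjusted p = 0.0415, edgeR). Its relatives Nr4a1 and Nr4a3 were not called, at 0.14 and 0.75.

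The immediate early response family, of feedback regulators, held a pair of calls. Ier3, an apoptosis and ERK regulator, had 20.7, 14.5, 22.9 and 26.1 CPM in c-FosDCh DMM libraries, against 10.1, 5.84 and 8.57 CPM in c-FosWT DMM libraries (log2 fold change 1.36 ± 0.26, adjusted p = 0.0332, edgeR). Ier5l, less well characterized, had 13.4, 10.7, 16.5 and 14.4 CPM, against 7.85, 5.44 and 7.73 CPM in c-FosWT DMM libraries (0.97 ± 0.20, adjusted p = 0.0332, edgeR). Both genes separated the DMM groups in every library, while Ier2 at 0.03 and Ier5, a regulator of the heat shock factor, at -0.71 ± 0.24 (adjusted p = 0.0626, edgeR) were not called.

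Arc, a cytoskeletal protein best known from synapses, had 10.8, 10, 14.8 and 10.8 CPM in c-FosDCh DMM libraries, against 4.74, 3.55 and 3.56 CPM in the DMM knees of c-FosWT mice and 8.27, 7.85, 8.77 and 3.99 CPM in contralateral libraries. Its log2 fold change of 1.55 ± 0.28 (adjusted p = 0.0332, edgeR) came with the smallest p of the members, and c-FosDCh libraries lay above all others. Socs3, an inhibitor of cytokine receptor signalling, had 40.9, 34.8, 34.2 and 37.4 CPM, against 25.8, 21.8 and 25.9 CPM in c-FosWT DMM libraries (0.59 ± 0.12, adjusted p = 0.0332, edgeR). This was the smallest called rise, yet the libraries of each DMM group lay close together and apart from the other. Sik1, a kinase that restrains CREB coactivators, and Rhob were not called, at -0.43 and -0.22.

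Gadd45b, a stress-kinase adaptor, had 22.3, 19.5, 26.7 and 18.6 CPM in c-FosDCh DMM libraries, against 13.4, 12.9 and 14.9 CPM in the DMM knees of c-FosWT mice and 22.7, 21.1, 26.2 and 16.7 CPM in contralateral libraries. The c-FosDCh libraries thus lay above all c-FosWT DMM libraries and overlapped the contralateral ones (0.67 ± 0.17, adjusted p = 0.0386, edgeR). Gadd45a and Gadd45g were not called, at -0.44 and -0.38, and Gadd45a ranged from 14 to 49.8 CPM within c-FosDCh.

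The inducible Hsp70 genes Hspa1a and Hspa1b are neighbours on chromosome 17 with nearly the same coding sequence. Hspa1a had 5.84, 2.96, 6.32 and 12.8 CPM in c-FosDCh DMM libraries, against 2.81, 2 and 1.5 CPM in c-FosWT DMM and 3.07, 4.28, 4.53 and 2.55 CPM in contralateral knees (log2 fold change between the DMM groups 1.72 ± 0.46, adjusted p = 0.0394, edgeR). Hspa1b had 8.1, 5.23, 6.07 and 24.2 CPM, against 3.92, 1.6 and 2.56 CPM in c-FosWT DMM and 4.26, 5, 6.32 and 4.04 CPM in contralateral libraries (2.01 ± 0.56, adjusted p = 0.0422, edgeR). Library 4 of c-FosDCh was the highest for both genes. Of the 75-base windows of their longest transcripts, 52.7% of those of Hspa1a and 55.8% of those of Hspa1b occur in the other gene. Reads from such windows match both genes, and multimapping reads were left out of the gene counts, so the levels of both genes are uncertain. Dnajb1, the cochaperone of Hsp70, had 29.1, 24.4, 25.6 and 24.4 CPM in c-FosDCh DMM, against 30.5, 36.6 and 38.7 CPM in c-FosWT DMM libraries. It lay below in c-FosDCh, opposite to the Hsp70 genes, and did not pass (-0.45 ± 0.14, adjusted p = 0.058, edgeR).

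The promoter windows of this pair are shown because they are near copies, with 4 of 300 positions that differ. A first search for the heat shock element as TTCNNGAA, both strands, matched neither of them and 1 of the 40 windows, of Egr2, beside 8.52% of all windows. The other order of its units, GAANNTTC, was added after that outcome was seen; it matched 3 of the 40 windows, both Hsp70 genes among them, and 7.86% of all windows. Either order was in 4 of the 40 windows and in 15.1% of all windows, and nothing is drawn from the match, marked in capitals at -104.
Hspa1a (chr17:34972107-34972406, minus strand): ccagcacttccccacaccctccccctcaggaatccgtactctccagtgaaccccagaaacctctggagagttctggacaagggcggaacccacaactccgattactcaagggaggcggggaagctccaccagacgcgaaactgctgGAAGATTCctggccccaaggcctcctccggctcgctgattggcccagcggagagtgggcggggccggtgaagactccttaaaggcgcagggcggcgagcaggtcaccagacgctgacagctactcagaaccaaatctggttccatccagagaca
Hspa1b (chr17:34959189-34959488, minus strand): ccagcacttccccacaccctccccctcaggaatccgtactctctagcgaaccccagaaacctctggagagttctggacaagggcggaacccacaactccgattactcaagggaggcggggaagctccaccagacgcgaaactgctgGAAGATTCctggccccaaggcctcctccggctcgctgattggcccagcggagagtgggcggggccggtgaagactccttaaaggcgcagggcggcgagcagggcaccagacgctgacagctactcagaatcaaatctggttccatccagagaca

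**Figure D1:**
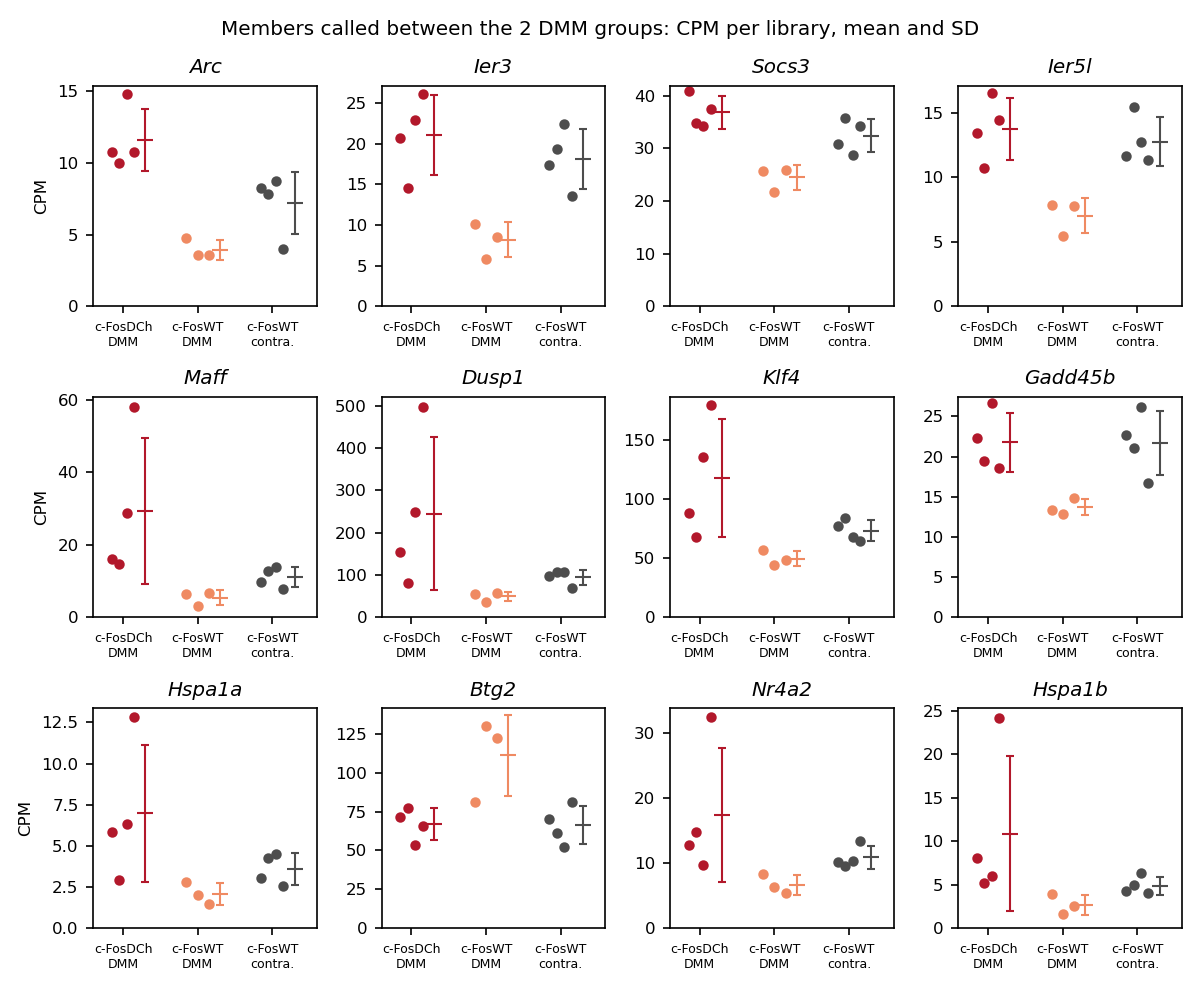
CPM per library for the 12 members called between the DMM groups, with c-FosDCh DMM, c-FosWT DMM and contralateral libraries from left to right; points are libraries and bars are the mean and SD of a group. Dusp1, Maff, Klf4, Nr4a2, Ier3, Hspa1a and Hspa1b have their highest value in c-FosDCh library 4, while Socs3 and Gadd45b spread less.

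**Figure D2:**
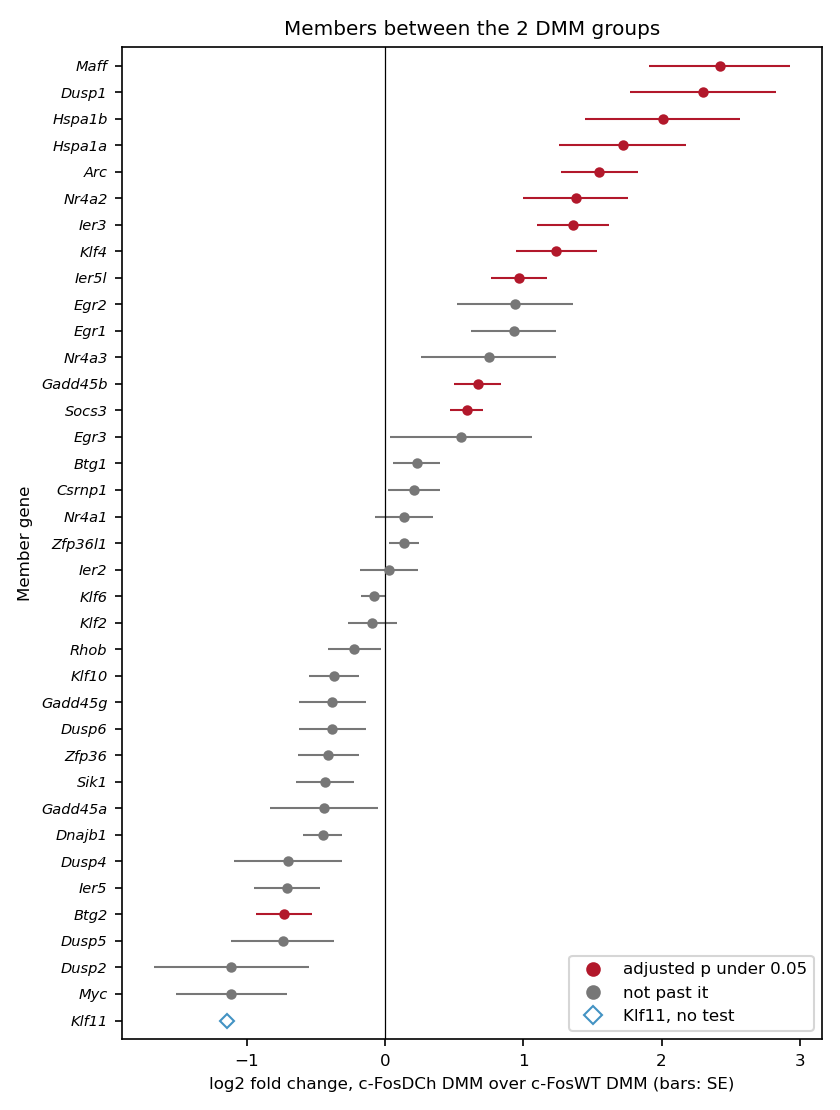
Log2 fold change of the members, c-FosDCh DMM over c-FosWT DMM, with the SE as bars; red points passed an adjusted p under 0.05 and the open diamond is Klf11, which was not tested. The 12 called members lie between -0.73 for Btg2 and 2.42 for Maff.

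These 12 calls depended on which libraries were in the fit. Leaving out c-FosDCh library 3 or 4, c-FosWT DMM library 2 or 3, or contralateral library 1 left 0 members and 0 of 18125 genes called. Leaving out c-FosDCh library 1 left 17 members and 4416 genes, and contralateral library 2 left 7 members and 1150 genes. Across the 11 fits without a library, 14 to 23 members had an unadjusted p under 0.05 (edgeR), against 17 with all libraries in. With all libraries in, 7074 of 18125 genes had such a p, and over all genes this was not counted in the 11 fits. With c-FosDCh libraries 3 and 4 both out, 0 members and 0 genes were called. Dusp1 then had a log2 fold change of 1.23, Maff of 1.48, Klf4 of 0.64, Arc of 1.38 and Socs3 of 0.61. With only the 2 DMM groups in the fit, 0 members and 0 genes were called as well. The edgeR adjusted p was 0.0866 for Arc and 0.109 for Hspa1b, and the log2 fold changes were 1.56 for Arc and 2.43 for Maff. Without c-FosDCh library 4 alone the log2 fold change was 1.26 for Hspa1b, 0.89 for Nr4a2, 1.70 for Dusp1 and 1.86 for Maff, and 1.58 for Arc. Each of the 12 called members kept its sign in each of the 11 fits without a library. DESeq2 called 16 members, 12 higher and 4 lower, where it called 29.6% of all genes.

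With the marrow score as a covariate, 0 members and 0 of 18125 genes were called. The log2 fold change was then 0.91 for Dusp1, 1.11 for Maff, 0.52 for Klf4 and 0.76 for Hspa1b, against 2.30, 2.42, 1.24 and 2.01 without the covariate. Arc had 1.30, Socs3 0.62 and Gadd45b 0.64, against 1.55, 0.59 and 0.67. Myc, which was not called in either fit, had -0.18, against -1.11. The 12 called members and the score share the same libraries, and how much of their difference goes with the score was not tested further. Leaving out the 2 libraries richest in muscle markers, c-FosWT DMM library 1 and contralateral library 2, also left 0 members and 0 genes called. The log2 fold changes were then 1.67 for Arc, 2.54 for Maff, 2.36 for Dusp1, 2.35 for Hspa1b, 0.61 for Gadd45b and -0.95 for Btg2.

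**Figure D3:**
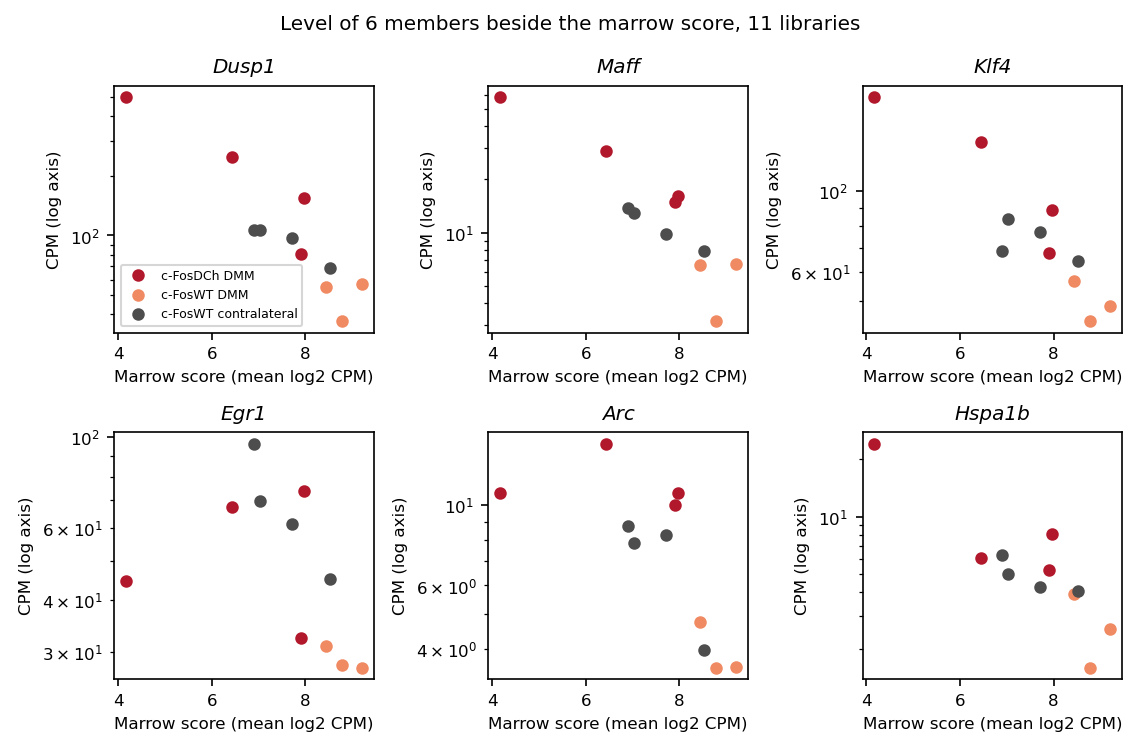
CPM on a log axis of Dusp1, Maff, Klf4, Egr1, Arc and Hspa1b against the marrow score of the same 11 libraries, coloured by group. The c-FosDCh library with the lowest score, 4.17, has the highest Dusp1, Maff, Klf4 and Hspa1b and is not the highest for Egr1 or Arc.

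Related genes were called in the same comparison as follows, beside 14.4% of all genes called, 10.6% higher and 3.79% lower. Their lists were drawn up by function, also with earlier results of these data known. Of 36 other primary response genes tested, 9 rose and 4 fell in c-FosDCh DMM. Pim1, a survival kinase, fell (log2 fold change -1.15 ± 0.17), as did Odc1, of polyamine synthesis (-1.01 ± 0.19), and Bhlhe40, a circadian repressor, rose (1.08 ± 0.20). In the AP-1 family 2 of 8 rose, Fosb at 2.16 ± 0.38 and Junb at 0.86 ± 0.23. Of 13 Sprouty and Spred antagonists of ERK and other phosphatases 5 rose, among them Spry4 at 1.12 ± 0.23, Spred3 at 0.78 ± 0.18 and Dusp14 at 1.77 ± 0.41. Of 26 other heat shock and chaperone genes, Hsf2 rose at 0.68 ± 0.20 and the mitochondrial chaperone Hspd1 fell at -0.73 ± 0.14. Of 11 glucocorticoid responsive genes 8 rose, among them the kinase Sgk1 at 1.77 ± 0.31, Tsc22d3 at 1.65 ± 0.33 and the clock gene Per1 at 1.44 ± 0.29, with a list median of 0.93 against -0.01 over all genes. All these calls are edgeR calls, and they became 0 with the marrow score as a covariate, when 0 genes of 18125 were called.

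The comparison of the 2 knees of c-FosWT mice asks what the operation changed. No member passed: edgeR called 0 of 36 members and 0% of all genes, at a lowest adjusted p of 0.182. At an unadjusted p under 0.05 there were 11 members, 3 higher and 8 lower in DMM knees, and 3605 of all genes. DESeq2 called 6 members, where it called 4.98% of all genes, and limma-voom 0. The DESeq2 calls were Egr1, Ier3, Ier5l, Gadd45b and Socs3, lower in DMM knees, and Btg2, higher. The groups did not overlap for 12 members lower in DMM knees, where 13.1% of all genes did so, and for 2 members higher, Ier5 and Gadd45a, where 10.1% did.

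Egr1 had 30.9, 27.8 and 27.4 CPM in c-FosWT DMM libraries, against 61.3, 69.6, 96.2 and 45.2 CPM in contralateral libraries. The DMM values lay close together below all contralateral ones (log2 fold change -1.25 ± 0.31, adjusted p = 0.182, edgeR). Ier3 had 10.1, 5.84 and 8.57 CPM in DMM libraries, against 17.4, 19.3, 22.4 and 13.6 CPM in the contralateral knees (-1.15 ± 0.25, adjusted p = 0.182, edgeR). Ier5l at -0.86 ± 0.20, Gadd45b at -0.66 ± 0.17 and Socs3 at -0.40 ± 0.12 had the same order of groups without overlap. Btg2 had the opposite sign at 0.75 ± 0.20 with 1 DMM library at the top contralateral level. Dusp1 at -0.93 ± 0.50, Klf4 at -0.56 ± 0.29 and Maff at -1.02 ± 0.49 were lower without overlap and did not pass. Ier2 at 0.18, Klf2 at -0.20, Nr4a1 at 0.00, Zfp36 at -0.01, Myc at 0.46, Hspa1a at -0.77, Hspa1b at -0.86 and Dnajb1 at 0.39 did not pass either.

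Within the 3 animals that gave both knees, 17 of 36 members were lower in the DMM knee of all 3 animals and 8 were higher in all 3, which is 47.2% and 22.2%, beside 24.4% and 21.8% of all genes tested. Egr1 differed by -0.99, -1.32 and -0.72 log2 CPM between DMM and contralateral knee, and Ier3 by -0.77, -1.71 and -0.66. The second animal had the largest fall of Maff, at -1.99, against -0.58 and -0.23 in the others. With the animal as a block, edgeR again called 0 members, at a lowest adjusted p of 0.205. The marrow score was higher in the DMM knees, at 8.81 ± 0.38 (SD, n = 3), against 7.54 ± 0.75 (SD, n = 4) in contralateral knees, and with it as a covariate the log2 fold change was -1.18 for Egr1, -0.89 for Ier3, -0.42 for Socs3, -0.25 for Dusp1, -0.19 for Klf4 and -0.17 for Myc.

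**Figure D4:**
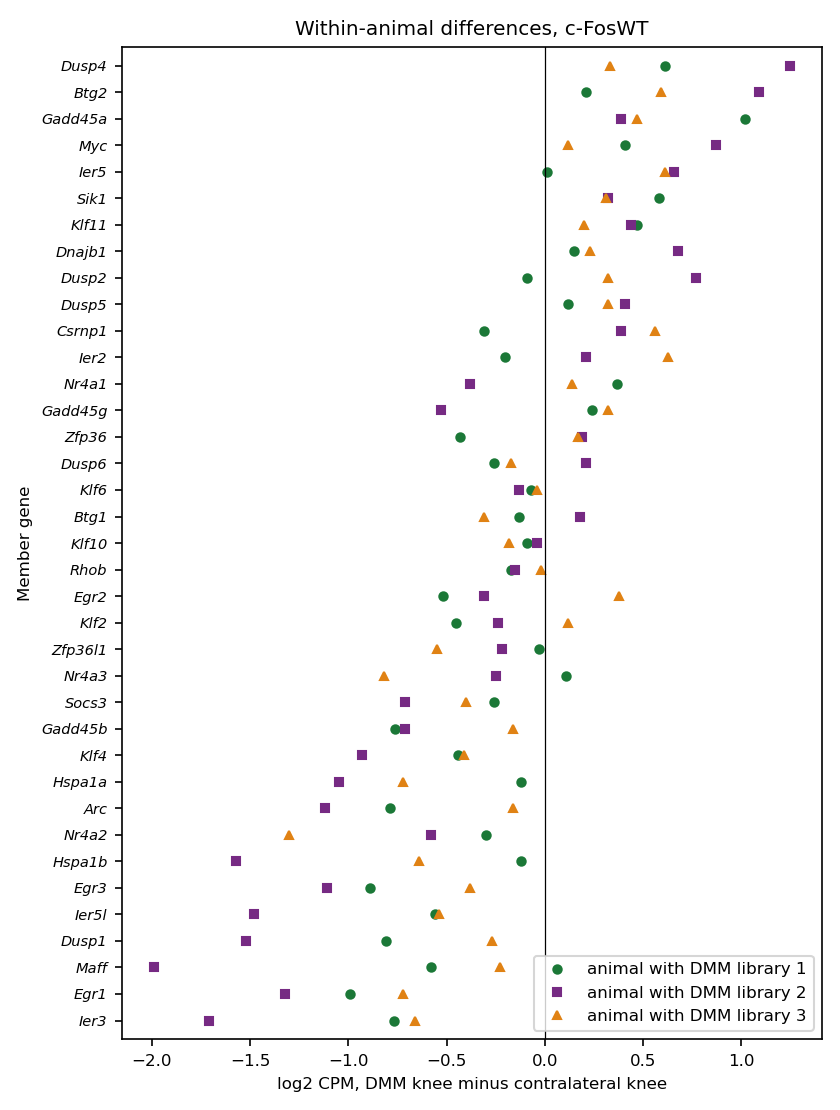
Difference in log2 CPM between the DMM and the contralateral knee of the same c-FosWT animal, for each tested member and each of 3 animals (circle, square and triangle), ordered by the mean. Ier3, Egr1, Maff, Dusp1 and Ier5l lie lowest, with all 3 animals below 0.

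Between the DMM knees of c-FosDCh mice and the contralateral knees of c-FosWT mice, which differ in genotype and operation at once, no member passed. edgeR called 0 members and 0% of all genes, at a lowest adjusted p of 0.584; 8 members, 7 higher and 1 lower, and 1512 genes had an unadjusted p under 0.05. DESeq2 called 0 members and 41 genes, and limma-voom 0 of both. The groups did not overlap for Maff, Csrnp1 and Arc, higher in c-FosDCh, where 2.28% of all genes did so, and for Klf10, lower, where 2.12% did. Maff averaged 29.4 ± 20.1 CPM in c-FosDCh DMM and 11.1 ± 2.74 CPM in contralateral libraries (SD, n = 4 each; log2 fold change 1.40 ± 0.44, adjusted p = 0.584, edgeR). Arc averaged 11.6 ± 2.18 and 7.22 ± 2.19 CPM in the same order (0.69 ± 0.25), and Csrnp1 19.8 ± 4.02 and 14.5 ± 0.695 CPM (0.45 ± 0.18). Klf10, a TGF-beta induced repressor, averaged 32.7 ± 8.49 and 45.2 ± 2.43 CPM (-0.47 ± 0.16), and c-FosDCh libraries 3 and 4 were its lowest, at 25.3 and 25.7 CPM. Klf11 averaged 11.2 ± 2.22 CPM in c-FosDCh DMM and 19.3 ± 1.04 CPM in contralateral libraries, as a description.

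The fixed members had these log2 fold changes in that comparison, none of which passed. Dusp1 had 1.37 ± 0.46, Klf4 0.68 ± 0.26, Hspa1a 0.95 ± 0.40 and Hspa1b 1.15 ± 0.48. Egr1 had -0.32 ± 0.28, Myc -0.66 ± 0.38, Zfp36 -0.42 ± 0.21 and Klf2 -0.29 ± 0.17. Ier2 at 0.21, Nr4a1 at 0.13, Btg2 at 0.02, Gadd45b at 0.00 and Dnajb1 at -0.06 lay near 0. The comparisons share libraries, so their values for a gene are not independent. By group means, c-FosWT DMM knees had the lowest level of 18 of the 36 members, c-FosDCh DMM knees of 14 and contralateral knees of 4. The same order was not counted over all genes, so no trait of the members is read from it.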

How the data were processed

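RNA of 11 knee cartilages was sequenced as single 75-base stranded reads, per the labels' protocols. The submitters' processing notes name bcl2fastq 2.19.1.403, STAR 2.6.1a, RSEM, DESeq2 1.22.2 and GRCm38; which annotation release and strand were counted is not given there. What the authors deposited is a raw read count for each gene; reads in no gene (unmapped, multimapping, without feature or ambiguous) were left out of library sizes and tests, and gene counts were 33.08 to 43.16% of the reads in the files. Symbols came from GENCODE M21, which matched 55240 of 55421 genes.

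With R 4.3.3 and edgeR 4.0.16, the filterByExpr step left 18125 genes, libraries were scaled by TMM, and all 11 entered 1 robust quasi-likelihood fit by group (two-sided; Benjamini-Hochberg over all genes, 0.05). The SE is the absolute log2 fold change over the square root of F; CPM use TMM-scaled totals and log2 CPM add a prior count of 2. The fit was also run on simulated counts of independent genes with known fold changes. Such counts hold no shift shared between genes, so they do not speak to the dependence on single libraries. Alternatives used DESeq2 1.42.0 and limma 3.58.1, other scalings, no filter, a marrow covariate, fewer libraries and an animal block. Promoter windows came from RefSeq on GRCm38.p6.

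The members and lists were chosen with earlier results of these data known. The result of 1 further list of related genes is not reported here. Fold changes were given for called members, most of those with the smallest p where few passed, a set of fixed members and some relatives. Some of these stand without their SE. Library values were given for the called members with the smallest p, Klf11 and the heat shock genes. They were also given for further members (Egr1, Myc and Btg2) chosen after their values were seen. The c-FosDCh libraries were numbered by accession order, since 2 carry the same number. No library pair of a group agreed within sampling noise (lowest chi-square per degree of freedom 31). Both knees of 3 c-FosWT animals are paired by their titles; the deviations of the paired libraries correlated at -0.17, -0.18 and 0.25. The labels do not say whether animals shared a litter or batch. The animal number of c-FosDCh library 4 lay apart from the run of numbers of the other animals, and what this means is not given.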

Additional observations from a re-analysis of the deposited data

Results flagged for a closer look

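For the 37 tested members, Klf11 included, in the 2 groups of 4 libraries, 4 of 74 sets of values examined had a library far from the others; chance alone gives about 1 in 20. All lie in c-FosDCh DMM. Egr3 was 5.24 CPM in library 4, where the other 3 had 26.9 to 30.2 CPM. Hspa1b was 24.2 CPM in library 4, where the others had 5.23 to 8.1 CPM. Arc was 14.8 CPM in library 3, where the others had 10 to 10.8 CPM. Klf6 was 128 CPM in library 1, where the others had 107 to 111 CPM.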

How the results depend on the processing

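Between the DMM groups, where 12 members and 2616 genes were called, members called were 16 with DESeq2, 11 with limma-voom, 12 with RLE size factors, 10 with library totals alone and 8 with no filter, and 0 with the marrow covariate, with only the 2 groups in the fit, without c-FosDCh libraries 3 and 4, and without the 2 muscle-rich libraries. All genes called were 5358 with DESeq2, 3225 with limma-voom, 2554 with RLE, 2157 with library totals and 1443 with no filter, and 0 in those last 4 fits. Leaving out each library in turn gave 0 to 17 members and 0 to 4605 genes. For DMM against contralateral c-FosWT knees, DESeq2 called 6 members and 902 genes, and the other alternatives called 0 of both. For c-FosDCh DMM against contralateral knees, DESeq2 called 41 genes and 0 members, and leaving out each library gave 0 to 1 genes. The cause of these differences was not tested.

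With the animal as a replicate block over 3 pairs, 0 members and 0 genes were called between the c-FosWT knees, as without it. No paired analysis was possible for the c-FosDCh comparisons because the animals differ.

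Fold changes that turned sign all lay near 0 in the fit reported, apart from Myc. In c-FosDCh DMM against c-FosWT DMM, library totals alone gave -0.12 for Ier2 and -0.04 for Nr4a1, the marrow covariate 0.01 for Klf2 and -0.01 for Nr4a1, and leaving out the muscle-rich libraries -0.18 for Ier2; leaving out single libraries gave -0.18 to 0.25 for Ier2 and -0.04 to 0.27 for Nr4a1. In c-FosDCh DMM against contralateral, library totals gave -0.03 for Nr4a1 and -0.15 for Btg2, the marrow covariate 0.03 for Dnajb1, leaving out c-FosDCh libraries 3 and 4 0.01 for Dnajb1, and leaving out the muscle-rich libraries -0.02 for Btg2; single libraries gave -0.08 to 0.12 for Btg2, -0.13 to 0.05 for Dnajb1 and -0.02 to 0.25 for Nr4a1. In c-FosWT DMM against contralateral, Zfp36 was 0.01 with DESeq2 and RLE, 0.02 with no filter and without c-FosDCh libraries 3 and 4, and 0.14 without the muscle-rich libraries, Klf2 was 0.01 without the muscle-rich libraries, and Myc was -0.17 with the marrow covariate; single libraries gave -0.09 to 0.15 for Zfp36 and -0.04 to 0.38 for Ier2.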
